A study of Mus musculus with 14 samples.

Results

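The genes described here are 7: *Hells*, *Prdm9*, *Zcwpw1*, *Cxxc1*, *Ewsr1*, *Ehmt2* and *Cdyl*, out of 21755 protein-coding genes annotated in GENCODE M21 on the autosomes and chromosome X of GRCm38. They were chosen by name, as the remodeler and the methyltransferase that the study is about and the genes of proteins known to work with PRDM9 or to read its marks. A peak was given to a gene when its center lay within 1 kb of any of the transcript starts of the gene or inside the gene body. By this rule 4 peaks of the *Hells* CTRL list and 7 peaks of the *Hells* cKO list belonged to the genes, from 11133 and 17117 peaks in all.

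DMC1 ChIP-SSDS maps meiotic DSBs through the single-stranded ends that DMC1, a strand exchange protein, coats, here in whole testes. The *Hells* CTRL mice were Hellsfl/Δ, with a floxed *Hells* allele over a deleted one and no Cre (5 weeks old, 2 testes per replicate). The *Hells* cKO mice were Hellsfl/Δ;Stra8-iCre (9 weeks old, 3 testes per replicate), so the deleted allele and the *Prdm9* Dom2 allele were shared by both groups, and age differed together with genotype. The Cre came from a transgene under the *Stra8* promoter, which acts in male germ cells around entry into meiosis. The study still saw weak HELLS staining in a minority of *Hells* cKO leptotene and zygotene nuclei. It names incomplete deletion in some spermatocytes as a possible explanation of residual HELLS. The 2 replicates of each genotype were merged by the authors into 1 list, so no value below has a replicate error and these lists allow no test between mice. The strength of a peak is the authors' background-normalized score. The authors state that signals of one genotype could not be scaled to those of the other, so strengths were ranked within a list, and a percentile is the percent of peaks of the list at or below that strength. For hotspots common to both genotypes, the study nevertheless formed groups by the log2 ratio of the signals, with a limit of 1 on either side. How many reads stand behind a strength is unknown, and a peak missing from a list means that none was called there, not that no DSB was formed. The lists hold no RNA values, so the tissue label could not be checked against marker genes, nor was the expression of the 7 genes measured.

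PRDM9 binds DNA through its zinc fingers and methylates histone H3 on lysines 4 and 36 of the nucleosomes beside its site, and DSBs are then formed there. HELLS is a chromatin remodeler of the SNF2-like family. When PRDM9 does not direct them, meiotic DSBs in mice are formed largely at promoters and other sites that carry H3K4me3 from other methyltransferases. Like any gene, the genes of these proteins have promoters at which DSBs can be mapped.

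In *Hells* cKO, 6 of the 7 genes had a DMC1 peak within 1 kb of a start, and *Ehmt2* had none. Across all protein-coding genes, 45.6% had such a peak. All 7 genes had 30 or more CpG dinucleotides within 250 bp of their richest start. In the classes of protein-coding genes with such starts the share was higher, at 66.3 to 74.5%. In *Hells* CTRL, only *Zcwpw1* had a peak at a start (1 of 7), against 2.7% of all protein-coding genes, and *Cdyl* had 3 peaks inside the gene. With peaks in the body counted as well, 6 of the 7 genes had a *Hells* cKO peak (background 50.2%) and 2 had a *Hells* CTRL peak (background 18.4%). At *Hells*, *Prdm9*, *Cxxc1* and *Ewsr1* the peaks were in the *Hells* cKO list alone. Of the 4 *Hells* CTRL peaks, 1 lay at a start, where 7.84% of that list did, and of the 7 *Hells* cKO peaks 6 did, where 61.5% of that list did. A partner in the other list was found for 2 of the 4 (10.1% of the list) and 2 of the 7 (6.6% of the list). None of the 7 genes had 2 or more *Hells* cKO start peaks, which 2.28% of protein-coding genes had. Leaving out *Cdyl*, 1 of the 6 genes, all 5 to 50 kb long, had a *Hells* CTRL peak, against 10.6% of protein-coding genes of such length. With 7 genes chosen by name, these counts describe the genes and were not tested against the background.

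**Figure D1:**
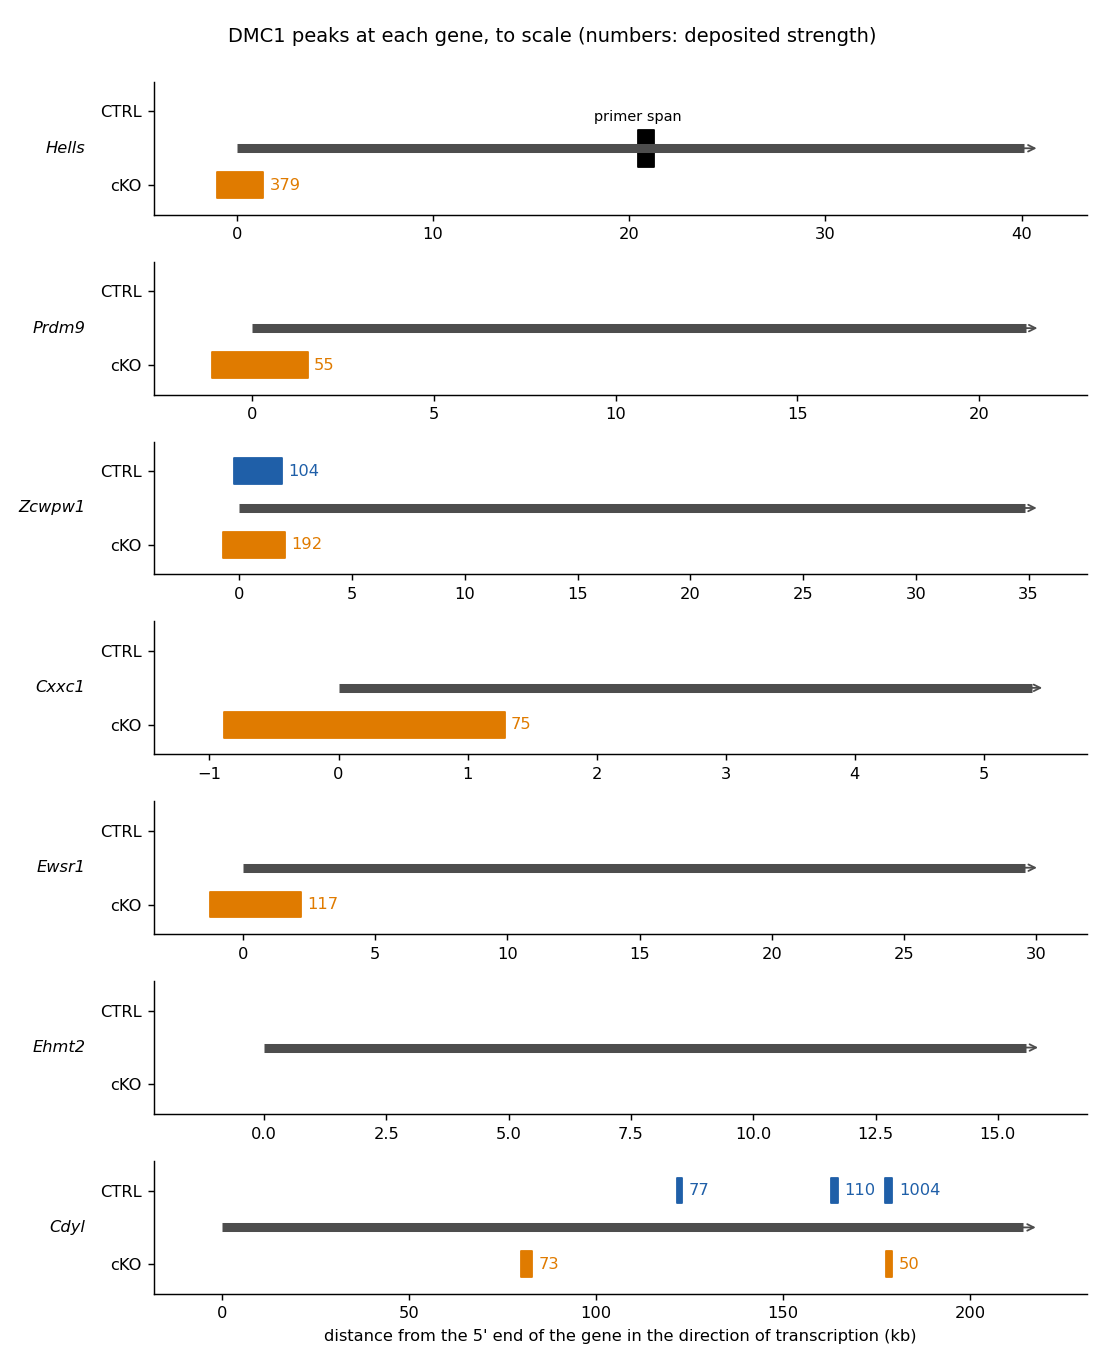
DMC1 peaks of the *Hells* CTRL list (blue, above) and the *Hells* cKO list (orange, below) on the 7 genes, drawn to scale along the distance in kb from the 5′ end of each gene in the direction of transcription. Each bar is a peak interval with its deposited strength, the grey bar is the gene and the black block is the span between the primers for the deleted *Hells* allele. The *Hells* cKO peaks sit at starts, apart from the *Cdyl* peak of strength 50, and *Ehmt2* has no peak in either list.

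The *Hells* cKO start peaks spanned a 6.89-fold range of strength. *Hells* had the strongest, at 379, followed by *Zcwpw1* at 192, *Ewsr1* at 117, *Cxxc1* at 75, *Cdyl* at 73 and *Prdm9* at 55. Without replicate values it cannot be said which neighbours in this order differ, and *Cxxc1* and *Cdyl* are only 2 units apart. Their median was 96, while the 9925 protein-coding genes with a *Hells* cKO start peak had a median of 48 for their strongest start peak (quartiles 26 and 97). All 6 genes with a peak lay above that median of 48, *Prdm9* only just. Unless stated, *Hells* cKO percentiles below are of the whole list, in which start peaks of any gene had a median percentile of 62.8. Among such start peaks only, *Hells* was at 99.5, *Zcwpw1* at 95.0, *Ewsr1* at 84.6, *Cxxc1* at 71.3, *Cdyl* at 70.4 and *Prdm9* at 61.0.

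**Figure D2:**
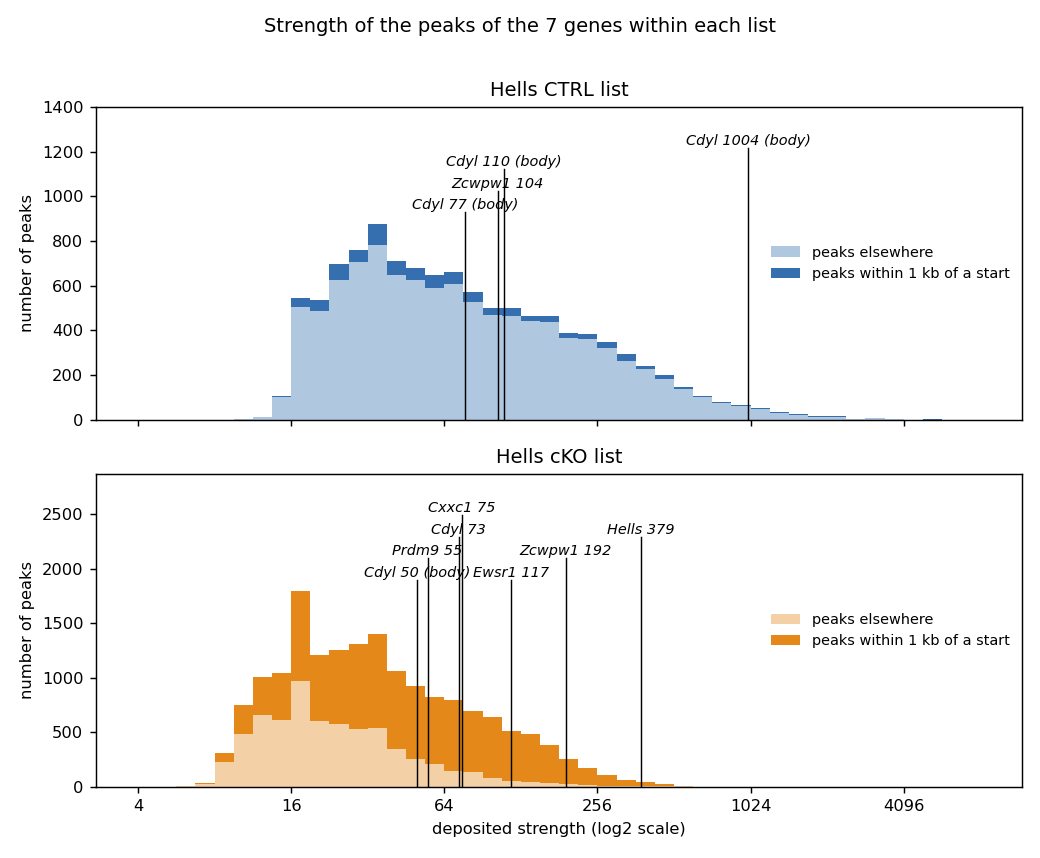
Number of peaks by deposited strength (log2 scale) in the *Hells* CTRL list (upper panel) and the *Hells* cKO list (lower panel), split into peaks within 1 kb of a start of any gene (dark) and elsewhere (pale), with vertical lines at the peaks of the 7 genes. The *Hells* peak of strength 379 stands in the upper tail of the *Hells* cKO list, and the *Cdyl* body peak of strength 1004 in that of the *Hells* CTRL list.

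Sequences near the start peaks are shown because these peaks were placed in stretches rich in CpG dinucleotides. Those of *Prdm9*, *Zcwpw1* and *Ewsr1* lie past a start, in an intron. Each line gives 100 bases of GRCm38 on the strand of the gene, as near to the *Hells* cKO peak center as a stretch outside annotated exons allowed, with CpG dinucleotides in capitals. *Ehmt2*, which had no peak, is shown by the 100 bases before its first start. *Cxxc1* is not printed.
*Hells*, chr19:38930815-38930914, plus strand: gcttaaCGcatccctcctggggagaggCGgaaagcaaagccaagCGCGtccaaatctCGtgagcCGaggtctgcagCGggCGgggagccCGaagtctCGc
*Prdm9*, chr17:15564086-15564185, minus strand: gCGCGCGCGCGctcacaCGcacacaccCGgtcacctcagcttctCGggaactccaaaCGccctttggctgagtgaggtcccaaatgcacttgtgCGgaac
*Zcwpw1*, chr5:137788387-137788486, plus strand: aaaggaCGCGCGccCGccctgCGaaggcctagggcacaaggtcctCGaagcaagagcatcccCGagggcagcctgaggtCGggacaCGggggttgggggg
*Ewsr1*, chr11:5098753-5098852, minus strand: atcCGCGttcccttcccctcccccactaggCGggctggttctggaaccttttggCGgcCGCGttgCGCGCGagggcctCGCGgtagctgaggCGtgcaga
*Cdyl*, chr13:35741213-35741312, plus strand: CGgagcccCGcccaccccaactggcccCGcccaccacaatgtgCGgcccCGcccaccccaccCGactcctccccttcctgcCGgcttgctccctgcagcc
*Ehmt2*, chr17:34898369-34898468, plus strand: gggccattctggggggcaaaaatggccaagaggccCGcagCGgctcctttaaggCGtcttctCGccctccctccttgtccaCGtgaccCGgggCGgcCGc

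*Hells* (chromosome 19, 38930915 to 38971051, plus strand) encodes the remodeler that was ablated. Its *Hells* cKO start peak (38929913 to 38932282) had a strength of 379, rank 68 of 17117 peaks and percentile 99.6 (exact 95% confidence interval 99.5 to 99.7, for counting error only). The center lay in an exon, 68 bp inside the nearest of the 6 transcript starts, and 61 CpG dinucleotides lay within 250 bp of it. Among protein-coding genes with a *Hells* cKO start peak, *Hells* ranked 60 of 9925, and no other gene without a *Hells* CTRL start peak had a strongest start peak of the same strength.

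No *Hells* CTRL peak lay within the gene, and the nearest one (38811841 to 38813364, strength 35) was 118.3 kb upstream. The allele itself was altered further into the gene. The genotyping primers for the deleted allele matched the reference at the ends of a span of 824 bp (38951359 to 38952182) that holds an exon of 97 bp (38951835 to 38951931) and reaches beyond the deleted part itself. The span begins 20.4 kb from the 5′ end of the gene and 19.1 kb beyond the end of the start peak, outside the interval of the peak. The peak is thus no check of the deletion.

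*Prdm9* (chromosome 17, 15543079 to 15564354, minus strand), which encodes the methyltransferase that directs DSBs to hotspots, had the weakest *Hells* cKO start peak of the 6 genes (15562819 to 15565452). Its strength of 55 was at percentile 71.8 of the list. The center was in an intron, 186 bp past a start, with 31 CpG dinucleotides within 250 bp, and the printed stretch holds a run of alternating C and G. In all, 69 other protein-coding genes without a *Hells* CTRL start peak had a strongest *Hells* cKO start peak of exactly 55, so its strength was an ordinary one. The nearest *Hells* CTRL peak (15429286 to 15430885, strength 165) lay 113.0 kb beyond the 3′ end of the gene. Each of the 3 other protein-coding genes with their 5′ end within 100 kb, *Pdcd2*, *Psmb1* and *Tbp*, also had a *Hells* cKO start peak.

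*Zcwpw1* (chromosome 5, 137787798 to 137822621, plus strand) encodes the protein that reads the pair of histone marks left by PRDM9. It was the only one of the 7 genes with a start peak in both lists, a state found in 2.04% of protein-coding genes. The *Hells* CTRL peak (137787572 to 137789685) had a strength of 104, at percentile 64.9 of its list. The *Hells* cKO peak (137787066 to 137789807) had a strength of 192, at percentile 96.6. Their centers were 192 bp apart, within the 400 bp by which hotspots were called common. The log2 ratio of *Hells* CTRL over *Hells* cKO was -0.88 with the deposited strengths and -1.72 after each list was scaled to its total strength. Neither scaling makes the genotypes comparable, and the second also depends on how many peaks were called, so no direction between genotypes was read from them. The rank within the list was higher in *Hells* cKO.

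The *Hells* cKO center was 639 bp and the *Hells* CTRL center 831 bp past the *Zcwpw1* start, in an intron. These were the start peaks farthest from a start among the 7 genes, and the closest to the limit of 1 kb. The same peaks also fell within 1 kb of the start of *Mepce*, on the other strand 143 bp away, so they cannot be given to one of the 2 genes. *Mepce* was accordingly 1 of the 3 genes most like *Zcwpw1*, with a strongest *Hells* cKO start peak of 192 and a *Hells* CTRL start peak, and *Fam199x* and *Nxf2* were the others (likeness over the 2 lists). Within 250 bp there were 30 CpG dinucleotides at the *Hells* cKO center and 25 at the *Hells* CTRL center, against a median of 4 in the *Hells* CTRL list. Of 45 other *Hells* CTRL start peaks within 10% of a strength of 104 (6 on chromosome X), 6 had a *Hells* cKO partner (13.3%). The strengths of these partners ranged from 31 to 533, with a median of 234. The *Zcwpw1* pair lay inside that range.

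*Cxxc1* (chromosome 18, 74216124 to 74221496, plus strand) encodes the CpG-binding subunit of the SETD1 complex, which methylates histone H3 at lysine 4 of promoters. Its *Hells* cKO peak (74215236 to 74217413) had a strength of 75, at percentile 79.9, with the center in an exon 194 bp past a start and 60 CpG dinucleotides within 250 bp. The interval reached upstream of the start and into this short gene of 5.37 kb. The nearest *Hells* CTRL peak (74477125 to 74478994, strength 568) was 256.6 kb beyond the 3′ end.

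*Ewsr1* (chromosome 11, 5069689 to 5099266, minus strand) encodes an RNA-binding protein of the FET family. Its *Hells* cKO peak (5097079 to 5100526) was the widest of the 6 start peaks at 3448 bp, where *Hells* cKO peaks at starts had a median width of 2070 bp. The strength was 117, at percentile 89.6, with 54 CpG dinucleotides within 250 bp. The center was 239 bp past an *Ewsr1* start and 123 bp from a start of *Rhbdd3* on the other strand, so this peak too was shared by a gene pair. Of the 5 genes that held no *Hells* CTRL peak, *Ewsr1* had the closest one. That peak (5040985 to 5042736, strength 274, percentile 86.6) was centered 27.8 kb beyond the 3′ end. A *Hells* cKO peak of strength 10 (5041043 to 5042414) was centered at 27.96 kb.

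*Cdyl* (chromosome 13, 35659833 to 35874063, plus strand) encodes a chromodomain protein that binds repressive histone marks. At 214.2 kb it is the longest of the 7 genes, and it was the only one with peaks away from a start. Its *Hells* cKO start peak (35739864 to 35742761) had a strength of 73, at percentile 79.2. The center lay exactly on an internal transcript start 81480 bp into the gene, with 54 CpG dinucleotides within 250 bp, while the 5′ end of the gene had 6 CpG dinucleotides and no peak.

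The 3 *Hells* CTRL peaks were all in introns further downstream. Their strengths were 77 (35781400 to 35782815, percentile 56.3), 110 (35822554 to 35824473, percentile 66.3) and 1004 (percentile 98.6, rank 157 of 11133). They had 4, 10 and 7 CpG dinucleotides within 250 bp of their centers. Long genes often hold such peaks, as 72.4% of the 261 protein-coding genes of 200 to 250 kb had at least 1 *Hells* CTRL peak, and 15.7% had 3 or more. Of the 3 peaks, the strongest alone had a *Hells* cKO partner, centered 82 bp away with a strength of 50, at percentile 68.8 of its list. The log2 ratio of *Hells* CTRL over *Hells* cKO was 4.33 with the deposited strengths and 3.50 after scaling to total strength. As at *Zcwpw1*, no direction between genotypes was read from these ratios. The rank within the list was lower in *Hells* cKO, but 61.5% of that list lay at starts. Its start peaks had a median strength of 42, against 21 for the others. Ranked only against peaks away from starts, the *Hells* CTRL peak was at percentile 98.6 and its partner at 86.9, a smaller gap.

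A *Hells* cKO partner of 50 was high for a *Hells* CTRL peak of that strength. Of 60 other *Hells* CTRL peaks away from starts and within 10% of 1004 (16 of them on chromosome X), 57 had a partner (95.0%), with a median *Hells* cKO strength of 27 (quartiles 23 and 31, range 16 to 583). The partner was at 50 or more in 2 of the 57. This sets the *Cdyl* value against other peaks of the same lists and carries no replicate error.

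The sequences at the *Cdyl* peaks of strength 77 and 110 and at the *Hells* CTRL peak of *Zcwpw1* are given to show what lay at *Hells* CTRL peaks of the genes. These peaks and the *Hells* cKO start peaks were searched for the 20 words of 8 bases that were most enriched within 100 bp of *Hells* CTRL peak centers outside the 7 genes over windows 1 kb away, on both strands. The words were GGTGCTAC, GATGCTAC, GCAGCACC, GCTACTAC, GATGCTGC, GATACTAC, GGTACTAC, GCAGTAGC, GCTGCTAC, GAAGCTAC, GCAGCAGC, GATACTGC, AGTAGCAC, GGTGTTAC, GCTGCCAC, AGCAGCAT, GGGTAGTA, CTACTACC, CTACTGCC and AAGCTACT, several of which overlap one another. At least 1 word was found at 36.4% of *Hells* CTRL centers, 14.02% of *Hells* cKO centers and 8.21% of the windows 1 kb from *Hells* CTRL centers. The words were picked for their excess at these *Hells* CTRL centers over these windows. That choice favors a gap between 36.4% and 8.21%, so the 2 shares are no independent measure. Each line gives the plus strand from 100 bp before to 100 bp after a peak center, with a word in capitals where there is one.
*Zcwpw1*, *Hells* CTRL peak of strength 104, chr5:137788529-137788729: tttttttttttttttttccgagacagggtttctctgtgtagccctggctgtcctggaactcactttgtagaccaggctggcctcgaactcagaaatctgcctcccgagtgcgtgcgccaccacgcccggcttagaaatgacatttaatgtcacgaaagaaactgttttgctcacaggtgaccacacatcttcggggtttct
*Cdyl*, *Hells* CTRL peak of strength 77, chr13:35782008-35782208: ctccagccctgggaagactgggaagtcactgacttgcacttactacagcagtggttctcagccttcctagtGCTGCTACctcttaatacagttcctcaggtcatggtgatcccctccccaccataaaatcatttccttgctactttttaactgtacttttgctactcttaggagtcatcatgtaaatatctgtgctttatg
*Cdyl*, *Hells* CTRL peak of strength 110, chr13:35823414-35823614: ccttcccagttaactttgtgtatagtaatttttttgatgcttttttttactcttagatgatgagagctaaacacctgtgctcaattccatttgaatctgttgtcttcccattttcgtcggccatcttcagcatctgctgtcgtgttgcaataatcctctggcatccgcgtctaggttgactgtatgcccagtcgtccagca

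Of the 3 *Hells* CTRL peaks printed above, only the *Cdyl* peak of strength 77 had a word within 100 bp of its center. The strongest *Cdyl* peak and its partner are not included in this count. Among the *Hells* cKO start peaks, *Hells* had GCAGCAGC 27 bp from the center, and the other 5 had no word. In the *Zcwpw1* window of the *Hells* CTRL peak, 68.2% of the bases are marked as repeated sequence in the reference, and in the window of the *Cdyl* peak of strength 77 it was 73.1%. Only uniquely mapped reads were kept by the authors, and the effect of these repeats on the strengths was not tested.

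*Ehmt2* (chromosome 17, 34898469 to 34914052, plus strand) encodes a methyltransferase of histone H3 lysine 9. It has 14 annotated transcript starts, with up to 61 CpG dinucleotides within 250 bp, as many as at any of the other 6 genes. Among protein-coding genes with 50 or more CpG dinucleotides at their richest start, 74.5% had a *Hells* cKO start peak (95% confidence interval 73.3 to 75.6%), compared with 1.33% of genes with fewer than 10 (1.04 to 1.67%). *Ehmt2* thus belonged to the class of starts with the highest share of peaks and had none. The upstream neighbour in the *Hells* cKO list was a peak of strength 17 at *Pbx2*, 306.4 kb away, and the downstream one a peak of strength 18 at 1110038B12Rik, 38.1 kb away. The interval of 360.1 kb between them held the 5′ ends of 21 other protein-coding genes, among them *C2*, *Cfb*, *C4b* and *Tnxb*, and 10 of these had 30 or more CpG dinucleotides at their richest start. Such an interval was longer than 90.4% of the intervals between neighbouring *Hells* cKO centers, whose median was 59.4 kb. It was picked because it holds *Ehmt2*, a gene without a peak, and a given place falls more often in a long interval than in a short one. The 90.4% is therefore no measure of how unusual the region is. Of 17 other protein-coding genes with a 5′ end within 100 kb of *Ehmt2*, 1, *Lsm2*, had a *Hells* cKO start peak. No *Hells* CTRL peak lay within 100 kb, and the nearest was 106.8 kb downstream (strength 44).

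The CpG number of the starts ordered the strengths as well as the presence of *Hells* cKO peaks. The median strength of the strongest start peak was 22 in genes with fewer than 10 CpG dinucleotides, 42 in the class of 30 to 39, 50 in the class of 40 to 49 and 64 in the class of 50 or more (quartiles 33 and 120). *Hells*, at 379, was above the third quartile of its class, and so was *Zcwpw1*, at 192, where the third quartile of the class of 30 to 39 was 77. *Ewsr1*, *Cdyl*, *Cxxc1* and *Prdm9* lay between the median and the third quartile of theirs. Genes are not independent replicates, and these classes describe 1 list.

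**Figure D3:**
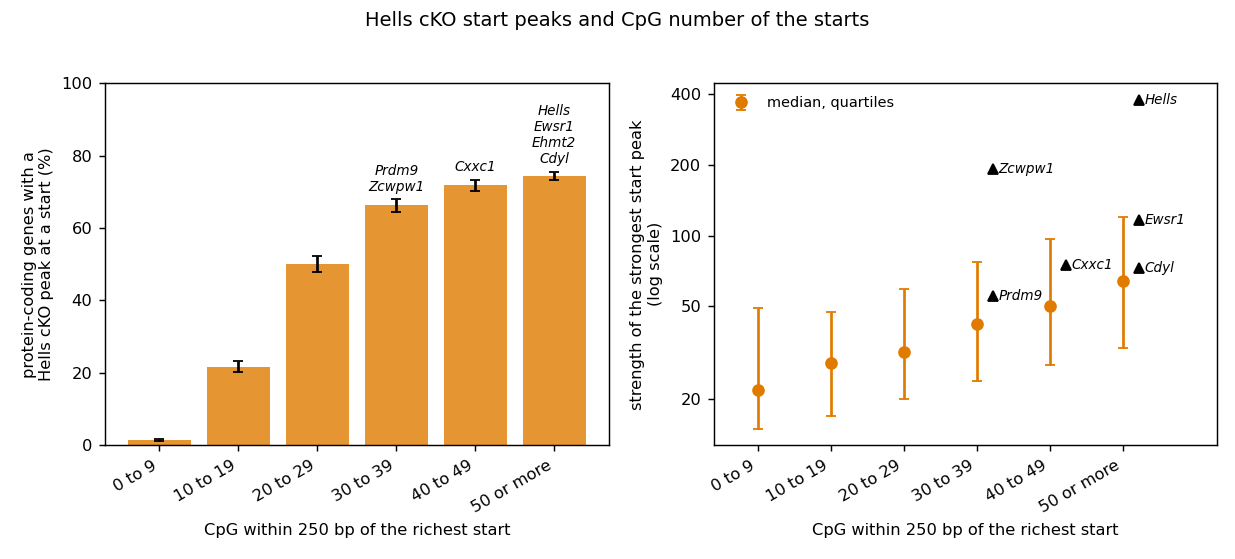
Left, percent of protein-coding genes with a *Hells* cKO peak within 1 kb of a start, by how many CpG dinucleotides lie within 250 bp of the start richest in them (bars with exact 95% confidence intervals, which cover counting error only), with the 7 genes named above their class. Right, median and quartiles of the strength of the strongest start peak in each class (log scale), with triangles for the 6 genes that had one. *Hells* and *Zcwpw1* are above the third quartile of their classes.

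To place the 7 genes beside others of the same pathways, 43 further genes were examined in 5 groups. A *Hells* cKO start peak was found at 35 of them (81.4%), against 45.6% of all protein-coding genes. The 35 include *Zcwpw2*, a pseudogene by annotation, a type of gene that the 45.6% does not cover. The share was 66.3 to 74.5% in the classes with 30 or more CpG dinucleotides at the richest start, and 50.1% in the class of 20 to 29. The 43 genes were not sorted into these classes. The strongest start peaks of the 35 genes had a median strength of 75 (range 22 to 258), and *Hells* at 379 was stronger than every one. The group of histone H3 lysine 9 and lysine 36 methylation, to which EHMT2 belongs by function, had a start peak at each of its 7 genes, with a median of 143. It included *Ehmt1*, the partner of *Ehmt2* in one methyltransferase complex, with a strength of 143. The strongest was *Suv39h2* at 258 and the weakest *Setdb1* at 36, both histone H3 lysine 9 methyltransferases.

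In the SETD1 complex, to which CXXC1 belongs, 5 of 8 genes had a *Hells* cKO start peak, from *Wdr82* at 57 to *Dpy30* at 170. *Setd1b*, *Rbbp5* and *Wdr5* had no start peak, although a *Hells* cKO peak of strength 79 lay in the body of *Setd1b*. Among the genes of HELLS partners, DNA methylation and its oxidation, 7 of 11 had one, from *Tet1* at 27 to *Tet2* at 105. *Cdca7*, whose protein activates HELLS, had a strength of 98, and *Cdca7l*, *Dnmt3b*, *Dnmt3l* and *Tet3* had no start peak. Of the 7 paralogs, which are relatives of the members by sequence, 6 had one, from *Smarca4* at 31 to *Smarcad1* at 169. *Cdyl2* had none, although 2 *Hells* cKO peaks lay in its body. The *Zcwpw2* peak, of strength 78, belongs to a locus annotated as a transcribed pseudogene. All 10 genes of DSB formation and strand exchange had a *Hells* cKO start peak, with a median of 44.5, from *Hormad1* at 22 to *Mei4* at 177. *Dmc1*, the gene of the protein precipitated here, had a strength of 35, below each of the 6 genes.

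*Hells* CTRL start peaks were found at 4 of the 43 genes, against 2.7% of all protein-coding genes. At *Suv39h1* and *Suv39h2* they were weak, with strengths of 38 and 24, and common with *Hells* cKO peaks of 203 and 258. At *Hcfc1* and *Smarcad1* they were stronger, with strengths of 263 and 307, lay at other starts than the *Hells* cKO peaks, with 1 and 4 CpG dinucleotides within 250 bp, and had no *Hells* cKO partner. *Suv39h1* and *Hcfc1* lie on chromosome X, *Suv39h2* and *Smarcad1* on autosomes. Whether this affects the strengths was not tested. *Ehmt1* had 2 *Hells* CTRL peaks in its body, of strengths 57 and 149, *Nsd1* had 2, of 142 and 144, and *Dnmt3b* had 2, of 90 and 138. *Smarca5* and *Ankrd31* had 1 each, of 65 and 15.

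**Figure D4:**
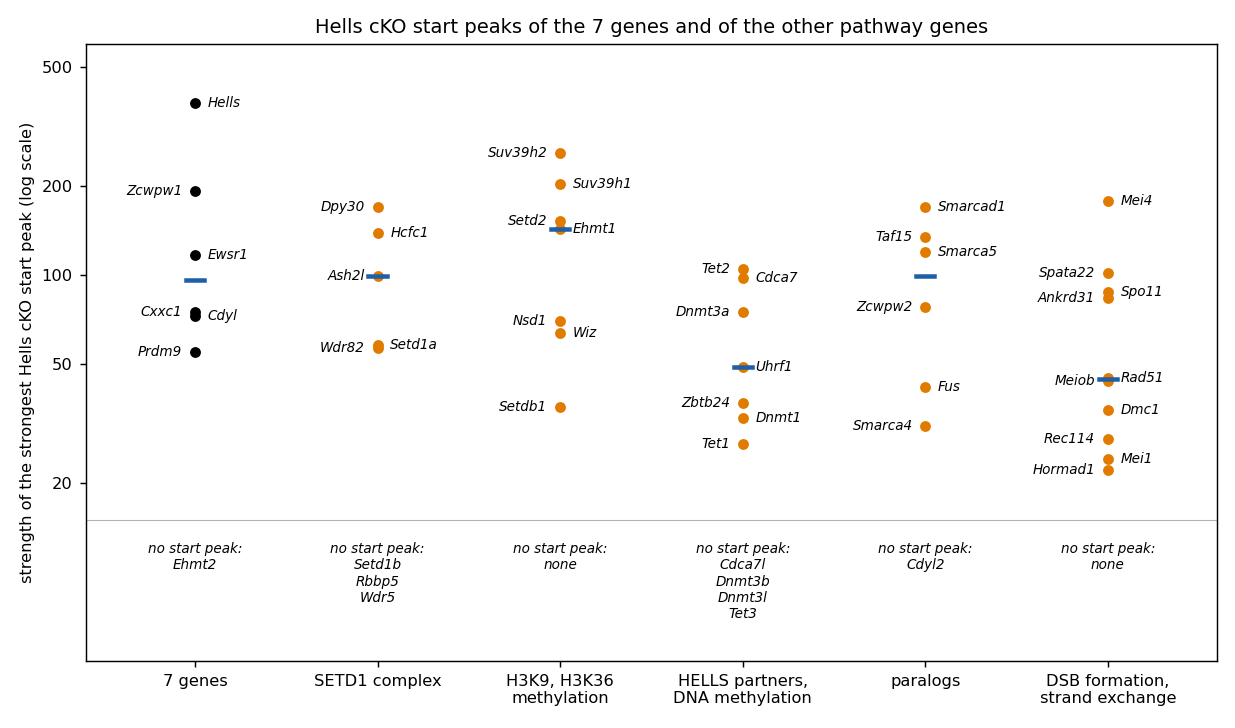
Strength of the strongest *Hells* cKO start peak (log scale) for the 7 genes (black) and the 43 other genes in 5 groups (orange), with a short blue line at the median of each group and the genes without a start peak named below the grey line. *Hells* is the highest point at 379, and the groups overlap over most of the range.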

How the data were processed

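DMC1 ChIP-SSDS peak lists of *Hells* CTRL and *Hells* cKO testes were used, 1 per genotype. Per the methods of the study, reads cut to 50 bp with a minimum Phred quality of 28 were mapped to mm10 (GRCm38). The authors retained unique, non-duplicated alignments, called peaks with MACS and selected final peaks of the merged replicates by IDR. The deposited value of a peak is the authors' strength score. It is described as normalized to local background and library size, but all values are whole numbers, so the second step is not evident. The other 10 libraries of the study were not used here.

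The center of a peak was the midpoint of its interval. Peaks were assigned with GENCODE M21, and common peaks had windows of 200 bp around their centers that met. Sequences came from GRCm38.p6. The sequence of the strongest *Cdyl* peak is not reported here. The genes, lists and settings were chosen with earlier results of these data known. Named were all 7 genes with all their peaks, genes sharing a start peak, genes of equal strength (if 3 at most) and, in each pathway group, the strongest, the weakest, those without a start peak and those with a *Hells* CTRL start peak. *Ehmt1*, *Cdca7*, *Zcwpw2*, *Dmc1*, the genes with *Hells* CTRL body peaks and genes near *Prdm9* and *Ehmt2* were named after their values were seen. Confidence intervals are exact (Clopper-Pearson). No test was run. The code was tested on simulated peaks. The tools were pysam 0.24.0, pandas 2.3.3, matplotlib 3.10.9, numpy 2.4.6 and scipy 1.17.1 under Python 3.11.15.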

Additional observations from a re-analysis of the deposited data

How the results depend on the processing

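The number of genes with a *Hells* cKO start peak was 6 under every alternative except a reach of 500 bp, which gave 5 because the *Zcwpw1* centers are farther than that from its start. The numbers of genes with any *Hells* cKO peak (6) and any *Hells* CTRL peak (2) and the 4 peaks with a partner were the same with the other reaches, interval overlap, protein-coding transcripts and the stronger peaks of each list, where each was tried. The median percentile of the 6 start peaks was 84.8 in the whole *Hells* cKO list and 77.9 among start peaks only. The median number of CpG dinucleotides at these peaks was 54, and 88 with windows of 500 bp on each side. The share of protein-coding genes with a *Hells* cKO start peak was 42.4% with a reach of 500 bp and 46.8% with 2 kb. Of 22 percentiles recomputed for single peaks, 9 left the counting interval of the whole-list value. No paired analysis was possible because each peak list used here merges both replicates of a genotype, and for the same reason no replicate was left out. Read depth per peak cannot be had from the lists, and a peak that was not called need not mean that no DSBs were formed.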
